A study of Saccharomyces cerevisiae with 6 samples.

Results

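The DNA damage checkpoint and repair genes of the budding yeast Saccharomyces cerevisiae are described here in cells whose histone H2B carries the K111A substitution, which puts alanine in the place of a lysine. The 57 genes were chosen by function, with earlier results of these data known, and all 57 were among the 5449 yeast genes read by the arrays. Each has 1 probe set of its own, and all 57 lay above the background level on all 6 arrays. That level is 3.7 intensity units, the 99th percentile of the fission yeast probe sets that the array also carries. Sorted by role, they are 11 checkpoint genes, 9 ribonucleotide reductase, regulator and damage-inducible genes, 5 of direct reversal and base excision, and 9 of nucleotide excision. The others are 6 genes of damage tolerance, 10 of recombination, 4 of end joining and 3 of mismatch repair.

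RNA came from strain PY014, which has wild-type H2B, and from strain WY317, the H2B K111A mutant, with 3 single-channel arrays each. Both strains grew in YPD, a rich glucose medium, and were collected in mid-log phase at an optical density of 0.35 to 0.7, with no DNA-damaging agent named. The wild-type arrays are labelled as the controls of a further H2B mutant, R102A, as well, which is not analysed here. The labels give no other allele and do not say how the mutant histone gene is carried. Whether a strain's arrays came from different cultures is not stated either. The p-values therefore cover only the spread between these 6 arrays, part of which may be technical. HTB1 and HTB2 encode H2B. HTB1 had a mean of 1280 ± 40.5 in PY014 and 1204 ± 50.5 in WY317 (SD, n = 3 each; adjusted p = 0.192), and HTB2 read 3.90 and 3.73, close to background in both. The mating type a markers STE2, BAR1, MFA1, MFA2 and STE6 read 332 or more on average in wild type, and none of the 5 passed the test. Of the 4 markers of mating type alpha, STE3 passed the test and fell from 21.4 ± 0.46 to 11.7 ± 1.47 (SD, n = 3 each; adjusted p = 0.00383). The other 3 did not pass, had slightly higher means in the mutant, and overlapped between the strains. SAG1 had means of 61.0 in wild type and 61.6 in the mutant, and MF(ALPHA)2 of 9.13 and 9.80. MF(ALPHA)1 read between 1.8 and 5.0 on the 6 arrays. The summed intensity of the a markers ran from 2813 to 2867 on the wild-type arrays and from 2770 to 2835 on the mutant arrays. That of the alpha markers ran from 89.8 to 97.3 and from 81.2 to 97.1, so the strains overlapped in both sums.

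DNA lesions and stalled replication forks are sensed by the kinases Mec1 and Tel1, yeast counterparts of ATR and ATM. They activate the kinases Rad53, Chk1 and Dun1, which hold the cell cycle and raise the supply of nucleotides, in part by removing the repressor Rfx1 from the ribonucleotide reductase genes. Repair itself is divided between pathways that reverse a base change, cut out a damaged base or strand, copy past a lesion, or rejoin a broken chromosome. Histones bear on the response because the checkpoint adaptor Rad9 binds modified nucleosomes.

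Of the 57 genes, 5 rose in the mutant and 3 fell, at an adjusted p under 0.05 in limma's test over all 5449 genes. HUG1, MGT1, DUN1, RAD50 and RAD2 rose, and XRS2, REV7 and YKU70 fell. That is 14.0% of the 57, beside 14.5% of all genes, of which 6.92% rose and 7.62% fell, so the share called lay at the background. The changes were small. The largest rise was 1.30-fold, in HUG1, and the largest fall 1.27-fold, in XRS2, both as ratios of mean intensities. On the log2(intensity + 32) scale used for the test, which understates changes of dim genes, the median absolute difference was 0.07 over the 57 and 0.06 over all genes. Unless stated, folds are ratios of mean intensities and log2 differences are on this scale, so one does not convert into the other. The arrays of the strains did not overlap for 20 of the 57, 12 higher and 8 lower, or 35.1% beside 36.7% of all genes (18.2% higher and 18.6% lower). An unadjusted p under 0.05 was found for 18, or 31.6% beside 31.7%.

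**Figure D1:**
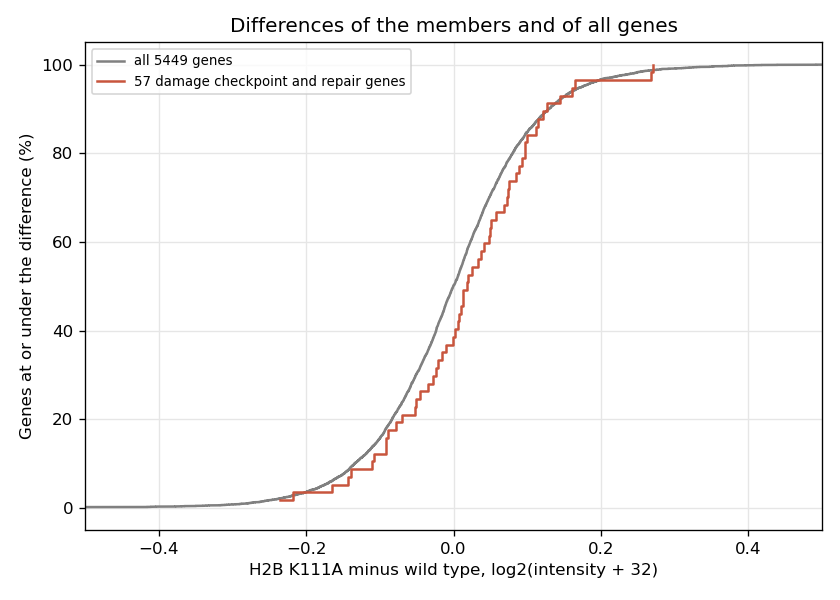
Cumulative share of genes (vertical axis, percent) at or under each difference between H2B K111A and wild type on the log2(intensity + 32) scale (horizontal axis), for the 57 damage checkpoint and repair genes (red) and all 5449 genes (grey). The medians are 0.02 and -0.0005, and the members run from -0.23 to 0.27.

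Mutant array 3 stood apart for these genes. It was the highest of the 3 mutant arrays for 41 of the 57 members (71.9%), beside 42.8% of all genes, while each wild-type array was the highest of its strain for 18 to 20. The median difference over the members was 0.019 with 35 of 57 positive, and it was 0.001 with 29 of 57 positive without mutant array 3. Of all 5449 genes, 49.8% were positive, and 47.3% without mutant array 3. The summed intensity of the members ran from 8379 to 8436 on the wild-type arrays, and was 8503, 8487 and 8647 on mutant arrays 1, 2 and 3. Without this array HUG1, MGT1, REV7 and XRS2 still passed, and DUN1, RAD50, RAD2 and YKU70 did not, with adjusted p between 0.0917 and 0.138. The loss was not particular to this array. The same 4 calls were lost without wild-type array 1 and without wild-type array 2, and some calls were lost whichever array was left out.

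**Figure D2:**
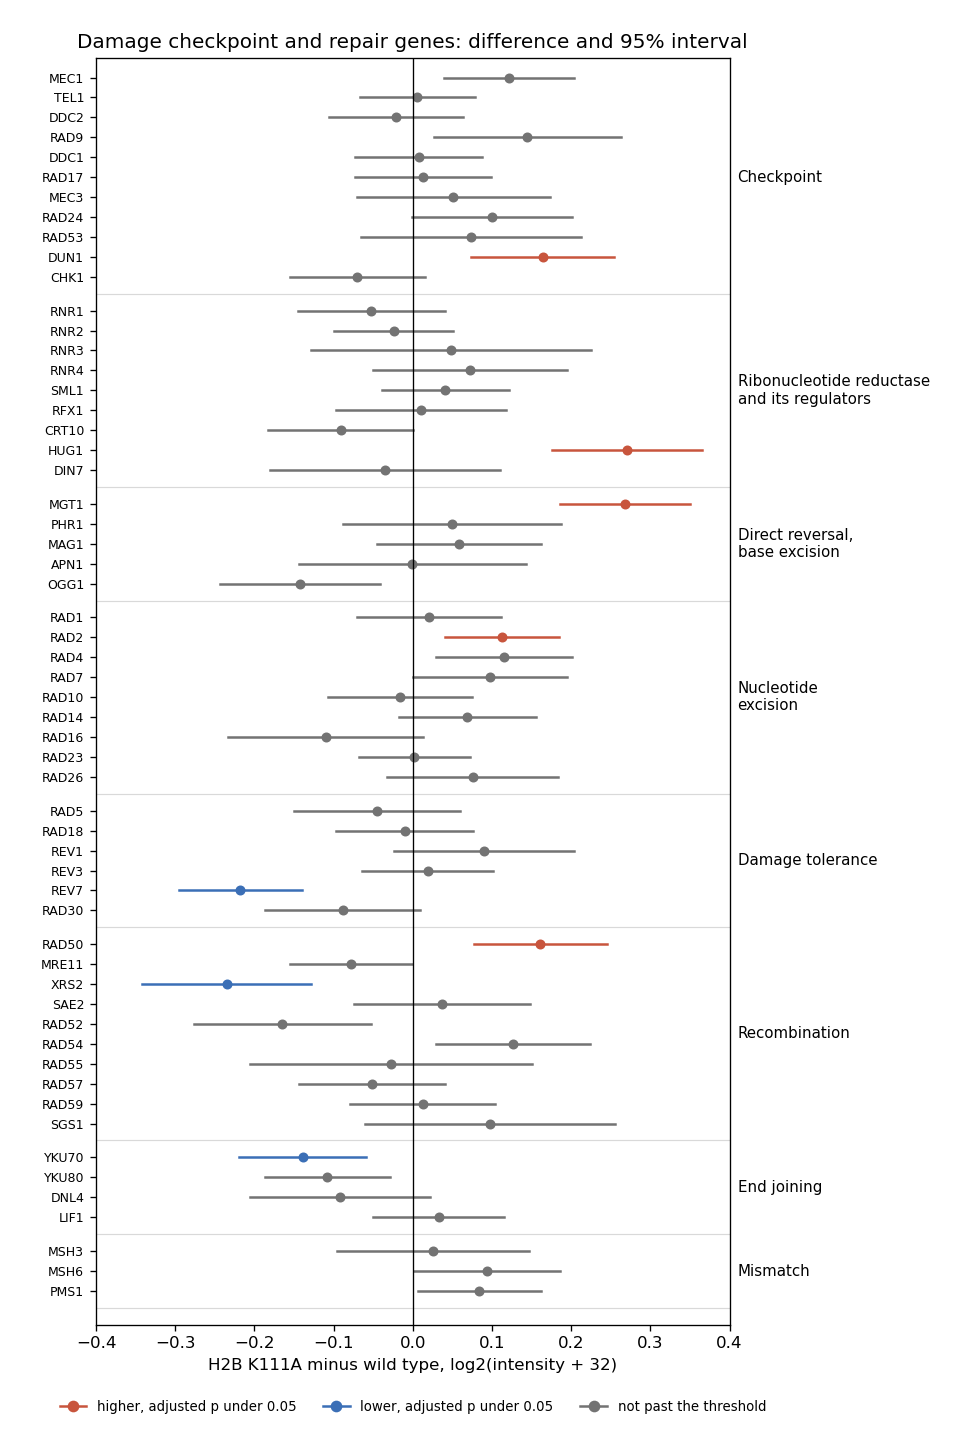
Difference between H2B K111A and wild type on the log2(intensity + 32) scale (horizontal axis) for each of the 57 genes, grouped by role, with limma's 95% interval as a line. The 5 genes that rose are red, the 3 that fell are blue, and the other 49 are grey. The recombination genes have points on both sides of 0.

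Among the 11 checkpoint genes only DUN1 passed the test. The log2 difference was positive for 9 of them, beside 49.8% of all genes, and for 7 to 10 when an array was left out. DUN1, the kinase that acts on the ribonucleotide reductase inhibitor Sml1 and on the repressor Rfx1, read 159.9, 153.8 and 154.5 on the wild-type arrays and 177.5, 170.7 and 188.3 on the mutant arrays. The strains did not overlap, and the lowest mutant array stood 10.8 units above the highest wild-type array. DUN1 rose 1.15-fold, a log2 difference of 0.16 ± 0.04 (SE, adjusted p = 0.0294). The call held without mutant array 2 and was lost when any of the other 5 arrays was left out (adjusted p up to 0.104). It was also lost with a pseudocount of 1 (0.0540) and with the replicate number as a block (0.0657).

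The sensor kinases and the adaptor above Dun1 read as follows. MEC1, the main sensor kinase, read 80.4, 86.9 and 82.3 on the wild-type arrays and 90.7, 95.4 and 93.9 on the mutant arrays, without overlap and just outside the threshold (adjusted p = 0.0547). RAD9, the adaptor that brings Rad53 to the sensor kinases, read 97.5, 89.9 and 96.9 in wild type and 97.7, 112.8 and 114.4 in the mutant. Mutant array 1 lay within 0.2 units of the highest wild-type array, and the adjusted p was 0.0939, or 0.0396 without mutant array 1. TEL1, the other sensor kinase, read 86.3 ± 1.51 and 86.8 ± 1.36, with a 95% interval of the log2 difference from -0.07 to 0.08. DDC2, the partner of Mec1 that current annotation calls LCD1, read 50.9 ± 1.84 and 49.7 ± 2.43.

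The checkpoint clamp and its loader did not pass either. The clamp, a ring of Ddc1, Rad17 and Mec3 that marks damaged sites, had log2 differences of 0.01, 0.01 and 0.05 for its 3 genes (adjusted p of 0.553 or more). RAD24, which loads it, read 82.5 ± 5.49 and 90.7 ± 4.05 (SD, n = 3 each; adjusted p = 0.160), and the strains overlapped. For the effector kinases RAD53 and CHK1 the intervals ran from -0.06 to 0.21 and from -0.15 to 0.01, and both intervals include 0.

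Ribonucleotide reductase makes the deoxyribonucleotides for replication and repair, and its genes are a standard readout of the checkpoint. None of its 4 subunit genes passed. RNR1, the large subunit, read 475.5, 491.0 and 522.5 in wild type and 487.9, 473.3 and 470.5 in the mutant, with overlap and a log2 difference of -0.05 ± 0.04 (SE, adjusted p = 0.417). RNR2, a small subunit, read 983.3, 951.6 and 949.5 against 935.0, 958.2 and 942.0, and its interval ran from -0.10 to 0.05. RNR4, the other small subunit, read 1044.7, 1129.3 and 969.9 against 1139.8, 1091.6 and 1074.0, an interval from -0.05 to 0.19. The 2 small-subunit genes thus had their means on opposite sides of 0, each within its own spread.

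RNR3, the alternative large subunit that is nearly silent until DNA is damaged, read 52.1, 45.7 and 46.9 in wild type and 45.1, 45.5 and 63.4 in the mutant. Only mutant array 3 was above the wild-type arrays, while the other 2 mutant arrays lay just under the lowest of them. Its log2 difference was 0.05 ± 0.08 (SE, adjusted p = 0.712), and -0.05 without mutant array 3. DIN7, a damage-inducible mitochondrial nuclease, also had its highest value there, at 56.6, against 43.8 and 46.4 on mutant arrays 1 and 2 and 45.7 to 55.4 in wild type.

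HUG1 was the exception in this group. It encodes a small protein that binds and restrains ribonucleotide reductase, and it is induced by DNA damage and replication arrest under the same repressor, Rfx1. HUG1 read 77.0, 72.8 and 74.7 on the wild-type arrays and 91.9, 103.7 and 95.2 on the mutant arrays. All 3 mutant arrays lay above all 3 wild-type arrays, by at least 14.9 units, and mutant array 2 was the highest. The rise was 1.30-fold, a log2 difference of 0.27 ± 0.04 (SE, adjusted p = 0.00679). The call held in all 15 alternative settings, with adjusted p between 0.00457 and 0.0300.

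The regulators of the group did not pass. SML1, the inhibitor that Dun1 marks for removal, read 1117.7, 1166.1 and 1133.7 in wild type and 1203.0, 1169.7 and 1145.9 in the mutant, with an interval from -0.04 to 0.12. The gene lies next to HUG1 on chromosome XIII. RFX1, the repressor, read 69.7, 59.9 and 64.4 against 61.2, 66.0 and 68.8, a log2 difference of 0.01 ± 0.05 (SE). CRT10, named for a role in the control of the reductase genes, read 120.4, 127.8 and 134.5 against 118.0, 115.0 and 120.1. Its mutant values were all the lower ones, by as little as 0.3 units, and the adjusted p was 0.160.

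**Figure D3:**
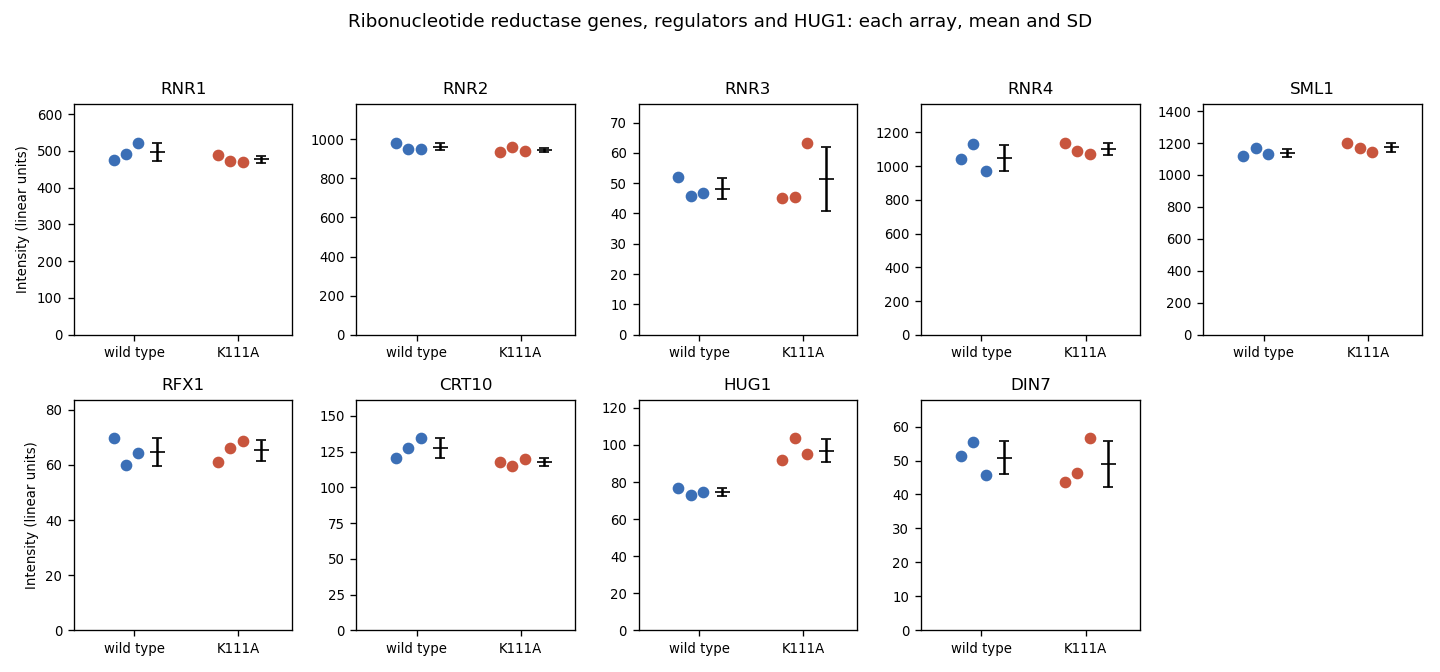
Intensity in linear units (vertical axis, from 0) of the 9 ribonucleotide reductase, regulator and damage-inducible genes on each wild-type array (blue) and mutant array (red), with mean and SD in black (n = 3). HUG1 is the only panel of the 9 that passed the test, with mutant arrays at 91.9 to 103.7 over wild-type arrays at 72.8 to 77.0; in the RNR3 panel mutant array 3, at 63.4, is alone above the rest.

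In direct reversal and base excision MGT1 rose. Its product is the methyltransferase that takes methyl groups directly off guanine in DNA, and it read 104.8 ± 3.33 on the wild-type arrays (SD, n = 3), the highest of which was at 108.5 with a range of 6.5 units, and 132.0, 129.0 and 137.3 on the mutant arrays. The strains were apart by 20.5 units at their closest. The rise was 1.27-fold, a log2 difference of 0.27 ± 0.04 (SE, adjusted p = 0.00430, the lowest of the 57), and it held in all 15 alternative settings.

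OGG1, the glycosylase for oxidised guanine, had all 3 mutant arrays under the wild-type ones, at 127.1, 130.7 and 131.3 against 141.9, 139.8 and 158.4. Its log2 difference was -0.14 ± 0.04 (SE), just outside the threshold (adjusted p = 0.0631). MAG1, the glycosylase for alkylated bases, read 87.0 ± 5.03 and 91.9 ± 5.38 (SD, n = 3 each), and its divergent neighbour DDI1 100.6 ± 7.47 and 107.3 ± 2.40, neither past the threshold. APN1, the main endonuclease at sites that have lost a base, read 303.3, 257.9 and 318.0 in wild type and 293.5, 291.0 and 291.1 in the mutant. Its mutant arrays were nearly equal and lay inside the wild-type range. The photolyase gene PHR1, which reverses ultraviolet damage with light, read between 22.9 and 31.6 on the 6 arrays, with the strains overlapping.

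Nucleotide excision repair removes bulky lesions such as those made by ultraviolet light. RAD2, the nuclease that makes the cut on the 3' side of the lesion, rose from 101.2, 101.4 and 101.6 to 109.9, 113.8 and 112.9. The wild-type arrays lay within 0.4 units of each other, which left a clear gap although the change was only 1.11-fold (log2 difference 0.11 ± 0.03, SE, adjusted p = 0.0465). The RAD2 call was lost when any of the 6 arrays was left out (adjusted p between 0.0810 and 0.138). It was also lost when dim genes were left out (0.0501) and with an intensity trend in the variance prior (0.0753). A pseudocount of 1 (0.0533) and the replicate number as a block (0.126) lost it as well.

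The other 8 genes of the pathway did not pass. In the damage-recognition pair, RAD4 read 47.4 ± 2.21 and 54.0 ± 2.50 without overlap (SD, n = 3 each, adjusted p = 0.0756). RAD23 read 466.3 ± 0.70 and 467.1 ± 3.17 (adjusted p = 0.967). Whether the 2 genes differed in their change was not tested. The RAD23 interval, from -0.07 to 0.07, bounds its change to about 1.05-fold of intensity + 32 either way. RAD7 and RAD16, whose products act together on DNA that is not being transcribed, had means on opposite sides. RAD7 read 90.9 ± 2.50 and 99.6 ± 6.62 (adjusted p = 0.159), and RAD16 read 144.2 ± 13.9 and 130.9 ± 3.15 (0.201). RAD1 and RAD10, which form the nuclease for the 5' side, RAD14, which binds damaged DNA, and RAD26, which acts on transcribed strands, had log2 differences between -0.02 and 0.08 and overlapping arrays.

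Damage tolerance lets replication pass a lesion without removing it. REV7, the accessory subunit of the translesion DNA polymerase zeta, fell from 86.1, 80.9 and 84.5 to 66.3, 67.2 and 69.3. All mutant arrays were lower, by at least 11.6 units, and they lay within 3 units of each other. REV7 was 1.24-fold lower, a log2 difference of -0.22 ± 0.03 (SE, adjusted p = 0.00723), and the call held in all 15 alternative settings. REV3, the catalytic subunit of the same polymerase, read 40.6 ± 1.28 and 41.6 ± 2.25 (SD, n = 3 each), and REV1, which works with it, 176.3 ± 11.1 and 189.6 ± 10.3. Neither REV3 nor REV1 passed the test, and the strains overlapped for both. RAD30, DNA polymerase eta, read 53.0 ± 3.22 and 47.9 ± 3.17 (adjusted p = 0.198), and RAD5 and RAD18, ubiquitin ligases that mark the replication clamp, had log2 differences of -0.05 and -0.01.

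In recombination, 2 subunits of the same complex moved in opposite directions. Mre11, Rad50 and Xrs2 form the complex that holds and trims broken DNA ends and brings Tel1 to them. RAD50 read 71.3, 70.2 and 71.3 on the wild-type arrays and 83.0, 79.0 and 87.4 on the mutant arrays, a rise of 1.17-fold (log2 difference 0.16 ± 0.04, SE, adjusted p = 0.0250). XRS2 read 78.9, 76.6 and 83.3 against 60.7, 58.9 and 69.1, and was 1.27-fold lower (-0.23 ± 0.05, SE, adjusted p = 0.0162). Neither gene's arrays overlapped between the strains, and mutant array 3 was the highest mutant array for both. MRE11, the nuclease, read 80.6, 86.3 and 82.7 against 77.5, 76.3 and 77.6, lower on all 3 mutant arrays with an adjusted p of 0.154.

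The log2 value of RAD50 minus that of XRS2 was also taken within each array, which removes differences shared by all genes of an array. Its own size and sign carry no meaning, since probe sets differ in response, so only its shift between the strains was read. It shifted by 0.40, with an SD of 0.04 within each strain (n = 3 each), and the strains did not overlap. RAD50 minus MRE11 shifted by 0.24, also without overlap, while MRE11 minus XRS2 overlapped between the strains. RAD50 was higher, and XRS2 and MRE11 lower, on all mutant arrays, so the lack of overlap in both RAD50 contrasts was fixed in advance. It adds nothing to the values of the single genes. These contrasts were chosen after the values of their genes were seen and carry no test. The XRS2 call was lost without mutant array 1 (adjusted p = 0.0570) or 2 (0.0508). Among the fits with 1 array left out, the RAD50 call held only without wild-type array 3 (0.0456) or mutant array 2 (0.0347). It was lost without each of the other 4 arrays and with the replicate number as a block. Of all 15 alternative settings, the RAD50 call held in 10.

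**Figure D4:**
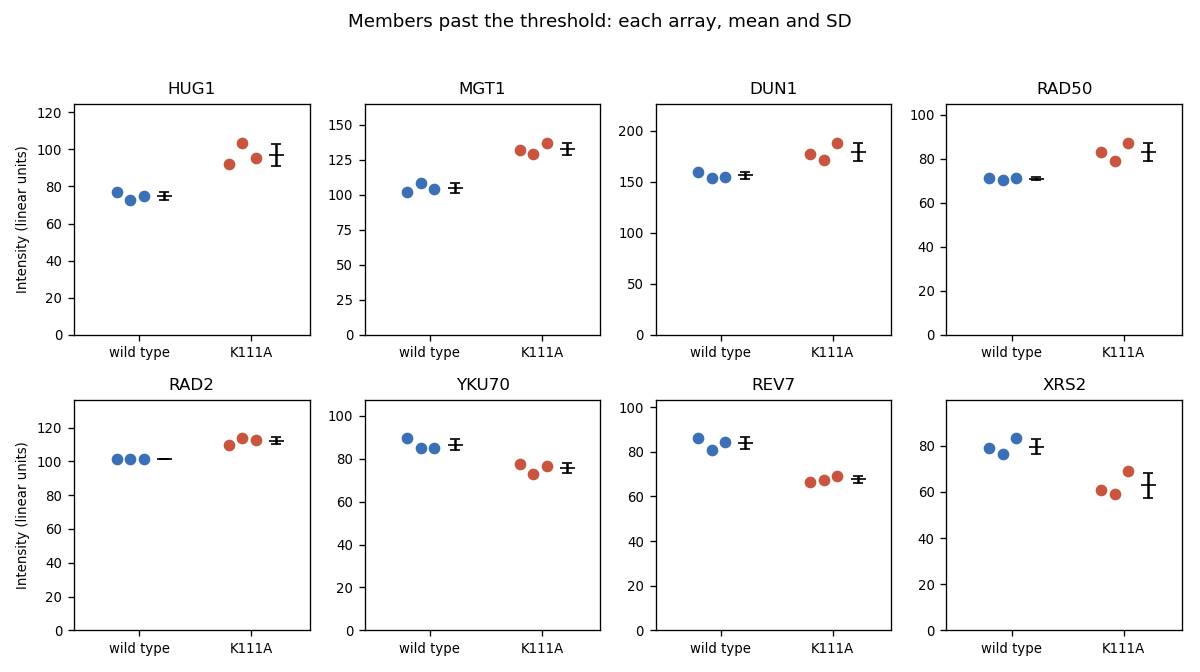
Intensity in linear units (vertical axis, from 0) of the 8 members past the threshold on each wild-type array (blue) and mutant array (red), with mean and SD in black (n = 3). The strains do not overlap in any of the 8 panels; HUG1, MGT1, DUN1, RAD50 and RAD2 are higher in the mutant, and YKU70, REV7 and XRS2 are lower.

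The other recombination genes read as follows. RAD52, which loads the recombinase and anneals strands, read 181.0, 167.0 and 189.0 in wild type and 162.0, 146.9 and 159.7 in the mutant. All mutant arrays were under the wild-type ones, with a log2 difference of -0.16 ± 0.05 (SE, adjusted p = 0.0551). RAD52 passed with quantile normalization, with median-centred arrays, with array weights and without wild-type array 2, where its adjusted p was lowest at 0.0374. RAD54, a motor protein of strand exchange, read 71.2 ± 5.38 and 80.5 ± 1.10 without overlap (SD, n = 3 each; adjusted p = 0.0804). The helicase gene SGS1 read 87.8 ± 11.3 and 95.9 ± 7.27, and wild-type array 3, at 74.7, was its lowest. RAD55, RAD57 and RAD59, which assist the recombinase or Rad52, and SAE2, a partner of Mre11 in end trimming, had log2 differences between -0.05 and 0.04. SAE2 had the lowest readings of the 57, between 5.9 and 9.5 units, where the log2(intensity + 32) scale understates a change most.

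In end joining, which ligates breaks without a template, YKU70 fell. It encodes a subunit of the Ku ring, which caps broken ends and telomeres, and read 89.6, 85.1 and 85.0 in wild type and 77.4, 72.9 and 76.7 in the mutant. YKU70 was 1.14-fold lower, a log2 difference of -0.14 ± 0.04 (SE, adjusted p = 0.0335). YKU70 lost its call when any of the 6 arrays was left out (adjusted p between 0.0505 and 0.109), and with the replicate number as a block. Its partner YKU80 read 35.0, 37.4 and 34.1 against 30.0, 30.2 and 31.7, also without overlap (adjusted p = 0.0709), and passed with a pseudocount of 1 (0.0481). The within-array value of YKU70 minus YKU80 shifted by -0.03 and overlapped between the strains. DNL4, the ligase, read 35.8, 34.9 and 37.7 against 28.2, 31.0 and 36.8, with mutant array 3 inside the wild-type range. Its partner LIF1 read 19.6 ± 0.50 and 20.8 ± 1.81 (SD, n = 3 each).

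**Figure D5:**
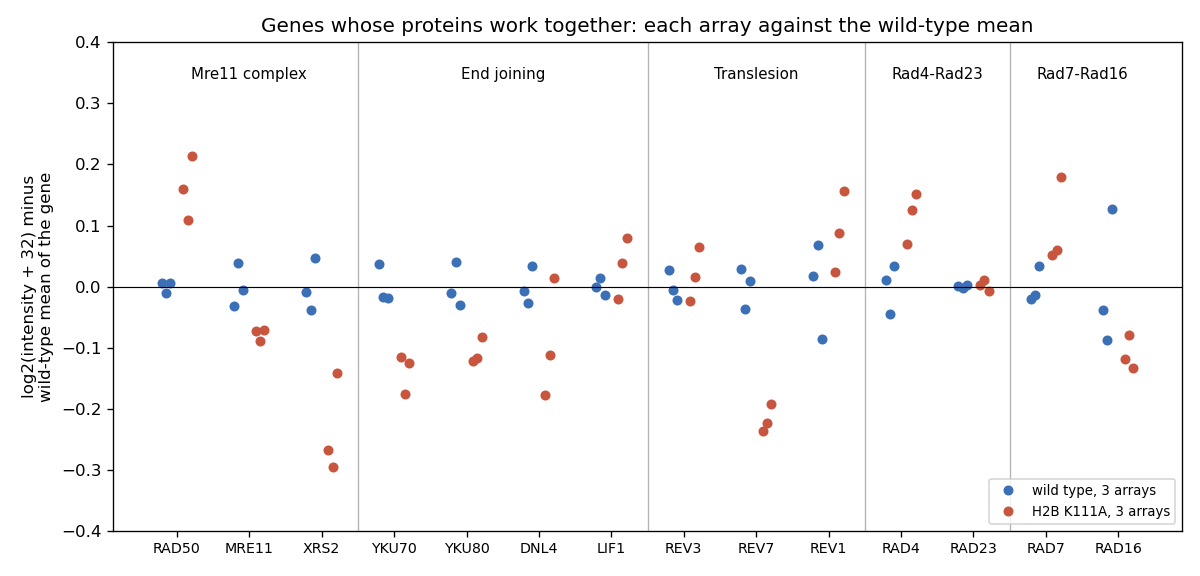
log2(intensity + 32) of 14 genes on each array minus the gene's wild-type mean (vertical axis), for wild-type arrays (blue) and mutant arrays (red), grouped by proteins that act together. RAD50 lies above 0 and XRS2 below it on all mutant arrays, YKU70 and YKU80 both lie below it, and REV7 lies below it on all 3 mutant arrays while REV1 lies above it on all 3.

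None of the 3 mismatch repair genes passed. All had positive differences, beside 49.8% of all genes. MSH6, which recognises base mismatches, read 148.1 ± 4.51 and 160.3 ± 7.82 (SD, n = 3 each; adjusted p = 0.153), and PMS1, which acts after recognition, 64.7 ± 0.68 and 70.6 ± 2.75 (0.132). The strains did not overlap for either gene, as was so for 36.7% of all genes. MSH3, which recognises small loops, read 77.1 ± 4.50 and 79.1 ± 7.53, and its arrays overlapped. Mutant array 3 was the highest mutant array for all 3 genes.

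For the 49 members that did not pass, the intervals bound the change. The 95% interval stayed within 0.2 on the log2(intensity + 32) scale for 35 of them, and within 0.1 for 6. A difference of 0.2 is 1.15-fold of intensity + 32, and a larger fold of the intensity itself, most of all in genes with low readings. The farthest bound, 0.28, was that of RAD52.

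Other genes of the damage response, listed by function, gave a similar picture. Of 91 measured, 7 rose and 7 fell, or 15.4% beside 14.5% of all genes, with a median difference of -0.01. RAD28, related to the human Cockayne syndrome A gene, rose from 39.8 ± 6.18 to 53.5 ± 3.76, with wild-type array 3 the lowest at 32.7. SRS2, a helicase that takes the recombinase off DNA, rose 1.18-fold, SMC6, of a complex that resolves joined chromosomes, 1.17-fold, PSY3, of the Shu complex that assists strand exchange, 1.20-fold, RDH54, a relative of Rad54, 1.14-fold, and CDC9, the replicative DNA ligase, 1.15-fold. SHU1, of the same Shu complex as PSY3, fell from 21.6 ± 2.17 to 16.6 ± 1.12 (SD, n = 3 each; adjusted p = 0.0499). PSY2, a subunit of the phosphatase that switches Rad53 off, fell from 184.7 ± 12.9 to 152.3 ± 7.35, while PTC2, another phosphatase that acts on Rad53, rose from 346.2 ± 6.19 to 380.1 ± 7.28 (adjusted p = 0.0412). Other listed genes of the Shu complex (SHU2 and CSM2) and of the Psy2 phosphatase (PPH3 and PSY4) did not pass (adjusted p from 0.287 to 0.940). Also lower were MSH5, of meiotic crossing over, by 1.21-fold, IRC4 by 1.29-fold, DDR48, a stress- and damage-responsive gene, by 1.13-fold, UNG1, the uracil-DNA glycosylase, by 1.13-fold and TAH11, a replication licensing factor, by 1.12-fold.

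The 8 called members had 16 measured genes beside them on the chromosomes, and 3 of those passed the test (18.8% beside 14.5% of all genes), 2 in the same direction as the member. POL3, the catalytic subunit of DNA polymerase delta, lies next to DUN1 and rose from 182.2 ± 3.31 to 212.3 ± 8.12 (SD, n = 3 each; adjusted p = 0.0151). NGL2, next to YKU70, fell from 174.2 ± 7.18 to 153.8 ± 3.71 (0.0335), and TNA1, next to RAD2, fell while RAD2 rose. Neighbours of HUG1, MGT1, RAD50, XRS2 and REV7 did not pass. OGG1, HUG1 and SML1 lie close together in the order OGG1, NTE1, HUG1 and SML1, and of these 4 only HUG1 passed.

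Several damage response genes, among them RNR1, are transcribed mostly as cells enter S phase, so 20 markers of that passage were read as well. TOS2 and CLN2, a G1 cyclin, fell, by 1.39-fold and 1.11-fold, and the other 18 did not pass. Of all genes, 14.5% passed in either direction and 7.62% fell. The share of the 20 that passed in either direction did not exceed that of all genes. The summed intensity of the 20 ran from 2924 to 3020 on the wild-type arrays and from 2835 to 2958 on the mutant arrays, and the ranges overlapped. In RNA of whole cultures, fewer cells at a stage and less mRNA per cell cannot be told apart, and the part of the cell cycle in the values above was not tested.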

How the data were processed

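Total RNA of 6 samples was read on single-channel arrays as biotin-labelled cRNA, per the labels' protocols. The deposited table holds linear intensity values, whose array means lie close together at 146.4 to 148.2. Whether and with which software the authors scaled them is not given in the sources used here, and no further scaling was applied. Of 10928 probe sets, the platform annotation tied 5498 to a gene listed in RefSeq R64, and the brightest per gene left 5449 genes. The difference mutant minus wild type was fitted on log2(intensity + 32) by limma 3.58.1 (R 4.3.3; lmFit, then eBayes). Two-sided p-values were adjusted by Benjamini and Hochberg's method over the 5449 genes, with calls at under 0.05, and the procedure was tested on simulated data. The number of arrays limits the precision. Probe sets differ in response, so the level of one gene was not set against that of another, except to say which readings lay nearest background. Of a difference between 2 genes within an array, only its shift between the strains was read. The members, lists and tests were chosen with earlier results of these data known. Array values were given for members past the threshold, for 8 genes of the reductase group and for the 3 largest differences among the rest. Other array values were added after they were seen, as were the other damage response genes named beyond the 10 with the largest differences. Replicate numbers were not used as pairs in the main fit, since the labels do not say that a number marks a shared culture or day. Deviations of same-numbered arrays correlated at -0.23, -0.06 and -0.17, which shows no shared effect but cannot settle whether the arrays were paired. Alternatives covered pseudocount, scaling, dim genes, replicate block, variance prior, array weights, probe sets and leaving out each array. Figures were drawn with matplotlib 3.10.9.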

Additional observations from a re-analysis of the deposited data

How the results depend on the processing

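HUG1, MGT1 and REV7 passed under all 15 alternatives. The count of members that rose was 5, and it was 3 with a pseudocount of 1 and 2 to 4 when an array was left out; the count that fell was 3, and 1 to 3 when an array was left out. Over all genes 792 passed, 489 with a pseudocount of 1 and 213 to 559 when an array was left out, the lowest without mutant array 3. Leaving out an array also takes a sample from the test. With the replicate number as a block, 2 members rose (HUG1 and MGT1), 2 fell (REV7 and XRS2) and 346 genes passed in all; no array's deviations correlated best with those of its own number in the other strain. With quantile normalization or median centring RAD52 was the only member added, with array weights RAD52 and MEC1, and none was lost. No call changed direction. Among members that did not pass, the sign of the log2 difference turned in 16 when an array was left out: TEL1 -0.0036 to 0.0154, DDC2 -0.0354 to 0.0037, DDC1 -0.0131 to 0.0253, RAD17 -0.0134 to 0.0351, RNR3 -0.0529 to 0.1007, RFX1 -0.0255 to 0.0476, DIN7 -0.1020 to 0.0105, APN1 -0.0810 to 0.0549, RAD1 -0.0070 to 0.0461, RAD10 -0.0422 to 0.0075, RAD23 -0.0021 to 0.0070, RAD18 -0.0351 to 0.0188, REV3 -0.0040 to 0.0401, RAD55 -0.1278 to 0.0345, RAD59 -0.0080 to 0.0487 and MSH3 -0.0278 to 0.0670. APN1 also turned with quantile normalization (0.0180), median centring (0.0006) and array weights (0.0011), from -0.0007. The causes were not tested. Signal over background limits SAE2 most.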
